A study of Saccharomyces cerevisiae with 21 samples.

Results

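Aminoacyl tRNA synthetases are the enzymes that join amino acids to their transfer RNAs, and the transcripts of 32 yeast genes of this kind were examined after 4 kinds of radiation. The genes were chosen by function and matched by symbol, each to 1 probe in both tables of array values. They are 14 genes of cytosolic enzymes, 4 genes that each encode a cytosolic and a mitochondrial form (called dual here), the cofactor gene ARC1 and 13 genes of mitochondrial enzymes. The tables name 5379 genes for thermal neutrons, carbon ions and gamma rays and 5365 genes for fast neutrons.

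Cultures of Saccharomyces cerevisiae strain S288C were washed, kept cold in saline during the exposure and then grown for 40 min at 25 C in 50 ml of fresh rich medium before poly(A) RNA was taken. On each 2-colour array, Cy5-labelled RNA of irradiated cells was set against Cy3-labelled RNA of unirradiated control cells of the same strain that had been held cold for the same time. The thermal neutron group received 20.8 Gy over 20 h at a reactor, at 17 mGy/min in all, of which thermal neutrons gave 1.0 to 2.0 mGy/min, so it is not a group of thermal neutrons alone. The carbon ion group received 25 Gy within 10 min from a beam of 290 MeV per nucleon, at 3 Gy/min. The gamma ray group received 17 Gy from a caesium source, for which the labels give both an exposure of about 20.5 h and a rate of 1.4 Gy/min, and these do not give the same dose. The fast neutron group received 20.3 Gy of fast neutrons within a total of 21.4 Gy, and the labels give both 19 h and 336 min. Each radiation had 3 arrays of independently collected samples. The labels place the control cells of both neutron groups in culture flasks and the irradiated ones in cuvettes, so the vessel and the radiation cannot be told apart there. Dose, rate and time in the cold also differ between the radiations and cannot be told apart from the kind of radiation.

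In yeast, as in other eukaryotes, proteins are made in the cytosol and, for a few respiratory subunits, in mitochondria, and each compartment needs charged tRNAs. Most mitochondrial synthetases are encoded by nuclear genes of their own, while ALA1 (alanine), GRS1 (glycine), HTS1 (histidine) and VAS1 (valine) each supply both compartments. ARC1 encodes a tRNA-binding protein that holds the methionine enzyme MES1 and the glutamate enzyme GUS1 in a complex. Uncharged tRNA activates the kinase GCN2, which raises translation of GCN4, an activator of amino acid synthesis genes.

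Values are log2 ratios of irradiated over control, so 0 means equal signal and 1 a doubling. Dyes were not swapped, so a dye effect of a probe stays in its ratio to 0, whereas subtracting 1 radiation from another on the same array type removes it. Fast neutrons were measured on another array type and were not tested against the other radiations. In bulk RNA of this kind, fewer cells that express a gene and less RNA per cell cannot be told apart. A gene is said to have risen or fallen where its mean passed a Benjamini-Hochberg adjusted p under 0.05 in limma, a linear model fitted over all genes. In simulated data this model made more false calls than the nominal share for thermal neutrons and their differences from the other radiations. Among the radiations fitted together, changed genes were simulated for thermal neutrons only, and in far fewer genes than were called here. The simulated share may therefore not hold for these data, nor be particular to thermal neutrons. Calls near the threshold are less certain than their adjusted p states. Replicate arrays correlated across genes with r of 0.74 to 0.86 for thermal neutrons, 0.44 to 0.71 for carbon ions, 0.73 to 0.83 for gamma rays and 0.43 to 0.67 for fast neutrons, and genes are not independent replicates. The median over all genes tested was -0.04 for thermal neutrons, -0.04 for carbon ions, -0.06 for gamma rays and 0.00 for fast neutrons. Array values also varied with the numbered fields of the probe IDs, and replicate 2 of fast neutrons stood apart in this respect. The results were therefore also computed after subtracting the medians of these fields, an alternative chosen after seeing the data and called field centring below.

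Most synthetase transcripts were not called after any given radiation, and the called members changed by at most 1.12 on the log2 scale on average (ILS1 after fast neutrons, -1.12). After thermal neutrons 8 of 32 members were called (25%), against 41.2% of all genes tested. 4 rose and 4 fell, against 19.9% and 21.2% of all genes. After carbon ions 6 of the 30 members tested were called, all lower, against 21.6% of all genes and 12.0% lower. None of the 30 rose by limma, against 9.70% of all genes, and 1 was higher at an unadjusted p under 0.05, against 16.8%. After gamma rays 6 of 32 were called, against 40.0% of all genes. 2 of these rose and 4 fell, where 17.6% and 22.4% of all genes did. After fast neutrons 6 of 32 were called, all lower, against 11.0% of all genes and 5.92% lower. None rose by limma, against 5.06% of all genes, with 2 higher at an unadjusted p under 0.05, against 15.7%. MSD1 and MST1 had values on only 2 carbon ion arrays and were not tested there. No member was called when carbon ion arrays were fitted without the other radiations, or after fast neutrons with the high-power scan alone. Losses named below for single calls do not list every alternative.

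The members' mean log2 ratios spanned -0.76 to 0.64 after thermal neutrons, -0.73 to 0.32 after carbon ions, -0.62 to 0.40 after gamma rays and -1.12 to 0.57 after fast neutrons. GUS1 and MES1 were below 0 on all 12 arrays and were the only members on a single side of 0 throughout. ALA1 and HTS1 were below 0 on 11 arrays, while MSF1 and DIA4 were above 0 on 10.

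**Figure D1:**
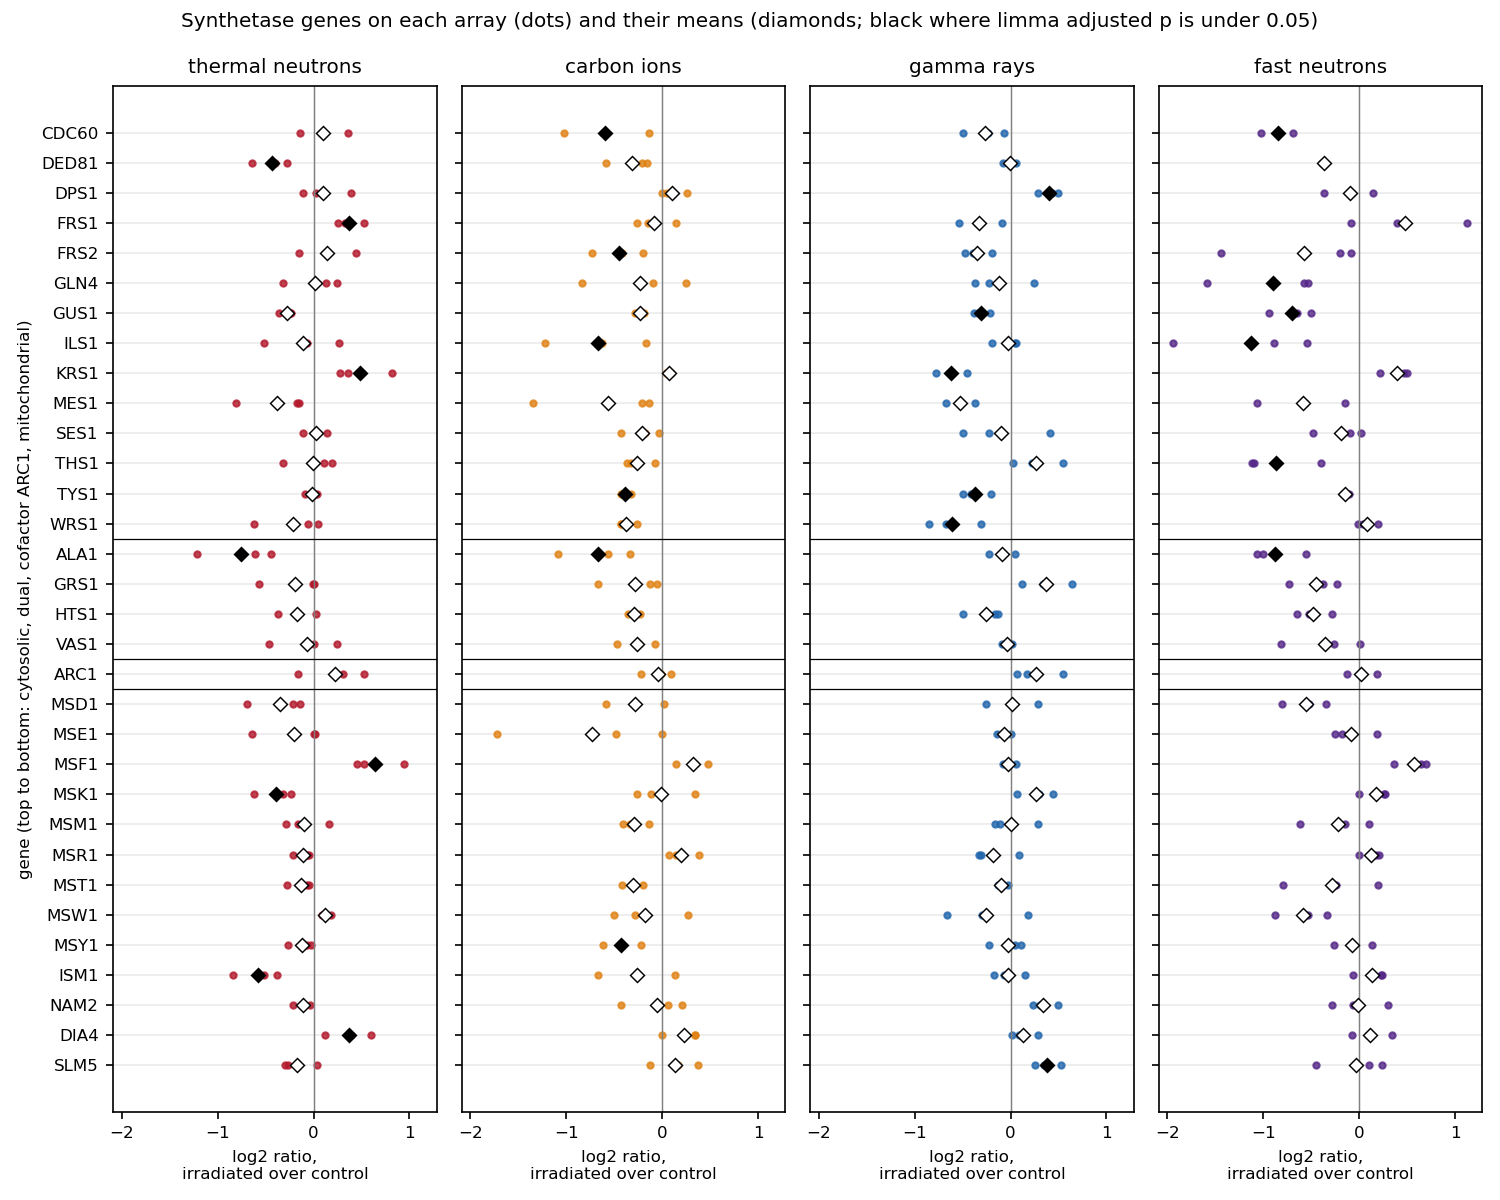
Log2 ratio of irradiated over control (x axis) for each of the 32 genes (y axis), with 1 panel per radiation; dots are single arrays (3 per radiation), diamonds their means, black where the limma adjusted p was under 0.05. GUS1 and MES1 lie left of 0 in all panels, and the 6 black diamonds of the fast neutron panel all lie left of 0 and above the mitochondrial genes.

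KRS1 (YDR037W), the cytosolic lysine enzyme, differed most between radiations among the tested differences of members. Its log2 ratios were 0.36, 0.28 and 0.82 on the thermal neutron arrays, 0.09, 0.04 and 0.09 on the carbon ion arrays, -0.78, -0.45 and -0.64 on the gamma ray arrays and 0.50, 0.47 and 0.22 on the fast neutron arrays. All 9 values after neutrons and carbon ions lay above all 3 values after gamma rays. It rose after thermal neutrons to 140% of control (mean 0.48 ± 0.29, SD, n = 3, adjusted p = 0.0120) and fell after gamma rays to 65.0% of control (-0.62 ± 0.16, adjusted p = 0.00314). The rise was lost without thermal neutron replicate 3, whereas the fall after gamma rays passed under all 16 alternatives computed for it. The difference between thermal neutrons and gamma rays was 1.10 ± 0.18 (SE), a ratio of 2.15 (adjusted p = 0.000856). Between carbon ions and gamma rays it was 0.69 ± 0.18 (adjusted p = 0.0225), and this call was lost without carbon ion replicate 1, gamma ray replicate 1 or gamma ray replicate 3.

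FRS1 (YLR060W) and FRS2 (YFL022C) encode the subunits of the cytosolic phenylalanine enzyme, which works as a complex of both. FRS1 had log2 ratios of 0.52, 0.26 and 0.33 after thermal neutrons, -0.14, -0.26 and 0.15 after carbon ions and -0.09, -0.54 and -0.35 after gamma rays. The thermal neutron values lay above all those of the other radiations of that table. FRS1 rose after thermal neutrons (0.37 ± 0.14, adjusted p = 0.0389), a call lost without any single replicate, and its difference from gamma rays was 0.70 ± 0.18 (SE, adjusted p = 0.0112). FRS2 had 0.44, 0.14 and -0.15 after thermal neutrons, -0.41, -0.73 and -0.20 after carbon ions and -0.39, -0.47 and -0.19 after gamma rays. FRS2 fell after carbon ions (-0.45 ± 0.26, adjusted p = 0.0461), a call lost without replicate 1 or 2. Its difference between thermal neutrons and gamma rays, 0.49 ± 0.20, did not pass (adjusted p = 0.0745).

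On the fast neutron arrays the subunits differed in sign and in spread. FRS1 stood at 0.39, -0.09 and 1.13, and FRS2 at -0.08, -1.44 and -0.19, and neither passed (adjusted p = 0.199 and 0.184). Each had a single far value. The 1.13 of FRS1 on replicate 3, from the low-power scan alone, stood beside a median of 1.11 over the 36 probes that share its first ID fields. The -1.44 of FRS2 on replicate 2 was the mean of -2.06 in the high-power and -0.82 in the low-power scan.

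MSF1 (YPR047W), the mitochondrial phenylalanine enzyme, is a single chain. Its log2 ratios were 0.52, 0.45 and 0.94 after thermal neutrons, 0.14, 0.48 and 0.34 after carbon ions, -0.08, -0.04 and 0.05 after gamma rays and 0.64, 0.36 and 0.70 after fast neutrons. The 9 arrays of neutrons and carbon ions were all above the 3 of gamma rays. MSF1 rose after thermal neutrons to 156% of control (0.64 ± 0.27, adjusted p = 0.00241), and its difference from gamma rays was 0.66 ± 0.18 (SE, adjusted p = 0.0131). Both calls were kept under all alternatives computed for them. After carbon ions (0.32 ± 0.17, adjusted p = 0.0885) and fast neutrons (0.57 ± 0.18, adjusted p = 0.0544) it did not pass, but with field centring it did, at 0.52 (adjusted p = 0.0113) and 0.64 (adjusted p = 0.0159).

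**Figure D2:**
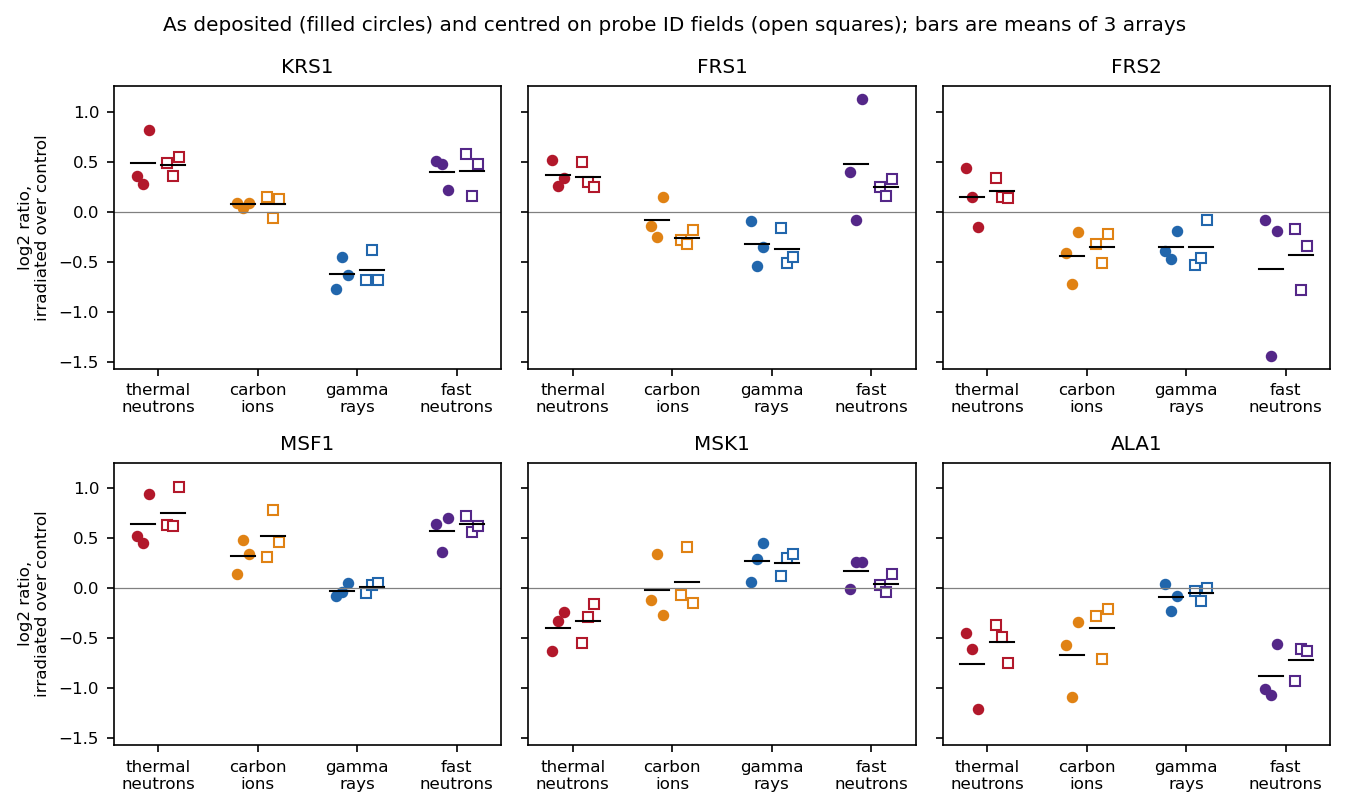
Log2 ratio of irradiated over control (y axis) of KRS1, FRS1, FRS2, MSF1, MSK1 and ALA1 by radiation (x axis); filled circles are arrays as deposited with scans averaged, open squares the same after field centring, bars the means of 3 arrays. KRS1 lies below 0 after gamma rays alone, MSF1 lies near 0 after gamma rays and above it elsewhere, and the far fast neutron values of FRS1 and FRS2 move toward the rest with field centring.

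ALA1 (YOR335C), the alanine enzyme of both compartments, was the member that fell after the most radiations. Its values were -0.45, -0.61 and -1.21 after thermal neutrons, -0.57, -1.09 and -0.34 after carbon ions, 0.04, -0.22 and -0.08 after gamma rays and -1.005, -1.07 and -0.56 after fast neutrons. Every value after neutrons or carbon ions was below every value after gamma rays. It fell to 59.1% of control after thermal neutrons (adjusted p = 0.00499), 63.1% after carbon ions (adjusted p = 0.0197) and 54.5% after fast neutrons (adjusted p = 0.0245). The thermal neutron call was lost without replicate 3, the carbon ion call without replicate 1 or 2 and the fast neutron call without replicate 1 or 3. On carbon ion replicate 2 the probes that share its ID fields were also low, as given for MES1 below. The difference between thermal neutrons and gamma rays was -0.67 ± 0.24 (SE, adjusted p = 0.0463), lost under 8 of 18 alternatives, the replicate block among them.

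None of the other dual genes was called by limma after any radiation, although HTS1 was below 0 on 11 of 12 arrays. At an unadjusted p under 0.05, HTS1 was lower after carbon ions and fast neutrons, and GRS1 was higher after gamma rays and lower after fast neutrons. HTS1, the histidine enzyme, averaged -0.18 ± 0.20 after thermal neutrons, -0.29 ± 0.06 after carbon ions, -0.26 ± 0.20 after gamma rays and -0.48 ± 0.19 after fast neutrons. With field centring it fell after carbon ions (-0.42), gamma rays (-0.30) and fast neutrons (-0.69). GRS1, the glycine enzyme, averaged -0.19 ± 0.33, -0.28 ± 0.34, 0.37 ± 0.26 and -0.45 ± 0.25 in the same order of radiations. VAS1, the valine enzyme, averaged between -0.36 and -0.04.

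The values of GUS1 (YGL245W) were -0.36, -0.24 and -0.23 after thermal neutrons, -0.19, -0.28 and -0.22 after carbon ions, -0.38, -0.22 and -0.34 after gamma rays and -0.94, -0.64 and -0.50 after fast neutrons. The 3 fast neutron values lay below those of all other arrays. GUS1 fell after gamma rays (-0.31 ± 0.08, adjusted p = 0.0334) and fast neutrons (-0.70 ± 0.22, adjusted p = 0.0369), and stood at adjusted p = 0.0511 after thermal neutrons. The gamma ray call was lost without any single replicate, and the fast neutron call without replicate 1 or 3. Because it was low on all arrays with the same dye orientation, a dye effect of its probe cannot be told apart from a fall in these ratios, and its differences among thermal neutrons, carbon ions and gamma rays, where such an effect is removed, did not pass (adjusted p = 0.726 to 0.879).

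MES1 averaged -0.38 ± 0.37 after thermal neutrons, -0.57 ± 0.68 after carbon ions, -0.53 ± 0.15 after gamma rays and -0.59 ± 0.46 after fast neutrons, and did not pass (adjusted p = 0.0711 to 0.177). Its lowest value, -1.35 on carbon ion replicate 2, stood beside a median of -0.72 over the 36 probes of its ID fields, which it shares with ALA1 and ILS1. ARC1, their cofactor, was above 0 on 8 arrays and was not called after any radiation. Its means were 0.22 after thermal neutrons, -0.05 after carbon ions, 0.26 after gamma rays and 0.02 after fast neutrons.

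Among the remaining cytosolic enzymes, those for leucine and isoleucine fell after carbon ions and fast neutrons. CDC60 (YPL160W), the leucine enzyme and also a leucine sensor upstream of the growth-controlling kinase complex TORC1, had values of 0.36, 0.08 and -0.15 after thermal neutrons, -0.61, -1.02 and -0.14 after carbon ions, -0.07, -0.50 and -0.24 after gamma rays and -1.02, -0.69 and -0.84 after fast neutrons. Its fast neutron values did not overlap those of thermal neutrons or gamma rays, a difference that was not tested. It fell after carbon ions (-0.59 ± 0.44, adjusted p = 0.0287) and fast neutrons (-0.85 ± 0.16, adjusted p = 0.0208). ILS1 (YBL076C), the isoleucine enzyme, had -0.62, -1.22 and -0.16 after carbon ions and -0.89, -1.94 and -0.54 after fast neutrons, and averaged -0.11 after thermal neutrons and -0.03 after gamma rays. It fell after carbon ions (-0.67 ± 0.53, adjusted p = 0.0304) and to 45.9% of control after fast neutrons (-1.12 ± 0.73, adjusted p = 0.0373). Its lowest array, fast neutron replicate 2, read -2.63 in the high-power scan and -1.24 in the low-power scan. On carbon ion replicate 2 the probes that share the ID fields of ILS1 were also low, as given for MES1 above. The carbon ion calls of both genes were lost without replicate 1 or 2, with field centring and with carbon ions fitted alone. Their fast neutron calls were lost without replicate 1 or 3 and with the high-power scan alone.

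The glutamine enzyme GLN4 and the threonine enzyme THS1 also fell after fast neutrons. THS1 stood at -1.10, -0.40 and -1.12 (-0.87 ± 0.41, adjusted p = 0.0329). GLN4 stood at -0.57, -1.59 and -0.54 (-0.90 ± 0.60, adjusted p = 0.0459). Replicate 2 of GLN4 was the far value, with a median of -1.27 over the 36 probes of its ID fields, and its call was lost with field centring while that of THS1 was kept (-0.53, adjusted p = 0.0444). Both calls were lost without replicate 1 or 3.

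TYS1 (tyrosine) and WRS1 (tryptophan) were low after carbon ions and gamma rays. TYS1 had -0.43, -0.32 and -0.42 after carbon ions and -0.20, -0.50 and -0.41 after gamma rays, against 0.03, -0.09 and 0.01 after thermal neutrons. It fell after carbon ions (-0.39 ± 0.06, adjusted p = 0.0277) and gamma rays (-0.37 ± 0.15, adjusted p = 0.0193). WRS1 had -0.30, -0.67 and -0.85 after gamma rays and fell (-0.61 ± 0.28, adjusted p = 0.00813). WRS1 averaged -0.37 ± 0.09 after carbon ions (adjusted p = 0.0935), and 0.08 ± 0.11 after fast neutrons. The gamma ray call of WRS1 was lost without replicate 3, and that of TYS1 without replicate 2 or 3. The carbon ion call of TYS1 was lost without any single replicate.

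The aspartate enzyme DPS1 was the only cytosolic member that rose after gamma rays, with 0.43, 0.28 and 0.49 (0.40 ± 0.11, adjusted p = 0.0252), a call lost without any single replicate. It averaged 0.10 after thermal neutrons, 0.10 after carbon ions and -0.10 after fast neutrons. DED81, which charges asparagine, had -0.28, -0.64 and -0.40 after thermal neutrons and fell (-0.44 ± 0.19, adjusted p = 0.0161), a call lost without replicate 2. The serine enzyme SES1 was not called after any radiation, with means of 0.02 after thermal neutrons, -0.21 after carbon ions, -0.10 after gamma rays and -0.19 after fast neutrons.

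Of the 13 mitochondrial enzymes, 4 were called after thermal neutrons, 1 of 11 after carbon ions, 1 after gamma rays and none after fast neutrons. These shares of 30.8%, 9.09%, 7.69% and 0% lie below those of all genes tested, which were 41.2%, 21.6%, 40.0% and 11.0% in the same order. They rest on only 11 or 13 genes, and their distance from the shares of all genes was not tested. For fast neutrons limma gave 3 mitochondrial genes at an unadjusted p under 0.05. Of these 1 was higher and 2 lower, against 15.7% and 15.8% of all genes. Of the 18 cytosolic and dual genes 4, 5, 5 and 6 were called in the same order of radiations, or 22.2%, 27.8%, 27.8% and 33.3%. The latter shares lie above those of all genes after carbon ions and fast neutrons and below them otherwise, which was not tested. After thermal neutrons MSF1 and DIA4 rose, and ISM1 and MSK1 fell. ISM1 (YPL040C), for isoleucine, had -0.84, -0.39 and -0.52 (-0.58 ± 0.23, adjusted p = 0.0126). All 3 values were low, but those of the 36 probes of its ID fields on replicate 3 had a median of -0.60, and the call was lost with field centring and without replicate 1. DIA4 (YHR011W), a probable mitochondrial serine enzyme, had 0.11, 0.39 and 0.60 (0.37 ± 0.25, adjusted p = 0.0411). The highest of these stood beside an ID field median of 0.40, and the call was lost with field centring and without replicate 2 or 3.

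MSK1 (YNL073W), the mitochondrial lysine enzyme, which in yeast is also needed to import a cytosolic lysine tRNA into mitochondria, had -0.62, -0.32 and -0.24 after thermal neutrons, -0.12, 0.34 and -0.26 after carbon ions, 0.06, 0.29 and 0.45 after gamma rays and -0.01, 0.27 and 0.26 after fast neutrons. The thermal neutron and gamma ray values did not overlap. Its fall after thermal neutrons (-0.40 ± 0.20, adjusted p = 0.0449) was lost under 8 of 16 alternatives, field centring and each left-out replicate among them. Its difference from gamma rays was -0.66 ± 0.20 (SE, adjusted p = 0.0231), lost without thermal neutron replicate 1, gamma ray replicate 2 or gamma ray replicate 3.

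SLM5 (YCR024C), for asparagine, had -0.26, -0.29 and 0.04 after thermal neutrons, against 0.35, 0.52 and 0.26 after gamma rays. It rose after gamma rays (0.38 ± 0.14, adjusted p = 0.0378), and the difference of thermal neutrons from gamma rays was -0.55 ± 0.18 (SE, adjusted p = 0.0343). The rise was lost without any single gamma ray replicate, and the difference without replicate 1 or 2 of either radiation. NAM2 (YLR382C), for leucine, which also acts in splicing of mitochondrial introns, had 0.49, 0.31 and 0.23 after gamma rays (0.34 ± 0.13, adjusted p = 0.0616) and rose there with field centring (0.43).

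MSY1, for tyrosine, had -0.44, -0.22 and -0.62 after carbon ions and fell (-0.43 ± 0.20, adjusted p = 0.0317), as did its cytosolic counterpart TYS1. Both calls were lost without any single carbon ion replicate. MSE1, for glutamate, varied most between carbon ion arrays, with -0.48, -1.72 and 0.00 (adjusted p = 0.0613). The -1.72 came from the high-power scan alone. MSW1, for tryptophan, averaged -0.58 ± 0.28 and MSD1, for aspartate, -0.56 ± 0.23 after fast neutrons, and neither passed (adjusted p = 0.0615 and 0.0621). MSM1 (methionine), MSR1 (arginine) and MST1 (threonine) were not called after any radiation in which they were tested, and their means lay between -0.31 and 0.20.

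The mitochondrial genes had the higher class median, relative to the cytosolic and dual genes as 1 class, on all gamma ray and fast neutron arrays. After thermal neutrons the mitochondrial medians were -0.16, -0.10 and -0.07 on the 3 arrays, against 0.12, 0.01 and -0.32 for the cytosolic class. After carbon ions, over the 11 mitochondrial genes with 3 values, they were -0.13, 0.14 and -0.26, against -0.21, -0.43 and -0.15. After gamma rays they were 0.06, -0.04 and -0.06, against -0.03, -0.23 and -0.21. After fast neutrons they were -0.08, 0.18 and 0.09, against -0.54, -0.39 and -0.21. The sign of the difference thus varied between arrays after thermal neutrons and carbon ions and was positive on all arrays after gamma rays and fast neutrons.

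The difference of medians, mitochondrial minus cytosolic, was -0.05 ± 0.27 after thermal neutrons, 0.18 ± 0.35 after carbon ions, 0.14 ± 0.05 after gamma rays and 0.45 ± 0.13 after fast neutrons (SD, n = 3 arrays). It carries no test, because the members were chosen with results of these data known. Dye effects of the probes stay in it, since dyes were not swapped, and cannot be told apart from a response. With field centring the fast neutron difference was 0.40 ± 0.04, and leaving out single arrays gave 0.39 to 0.52. Without the dual genes the gamma ray difference was 0.25. The carbon ion difference rests on replicate 2, without which it was 0.015.

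The classes also differed in how often a spot was measured. The mitochondrial genes lacked 13 of 117 values in the low-power scans, where the cytosolic genes lacked 0 of 126. In the other scans each class lacked 2 values, of 156 for the mitochondrial and 168 for the cytosolic genes. All missing values of mitochondrial genes were on carbon ion arrays, and the arrays of the other radiations lacked none of them. The part of the missing values in the carbon ion class medians was not tested.

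**Figure D3:**
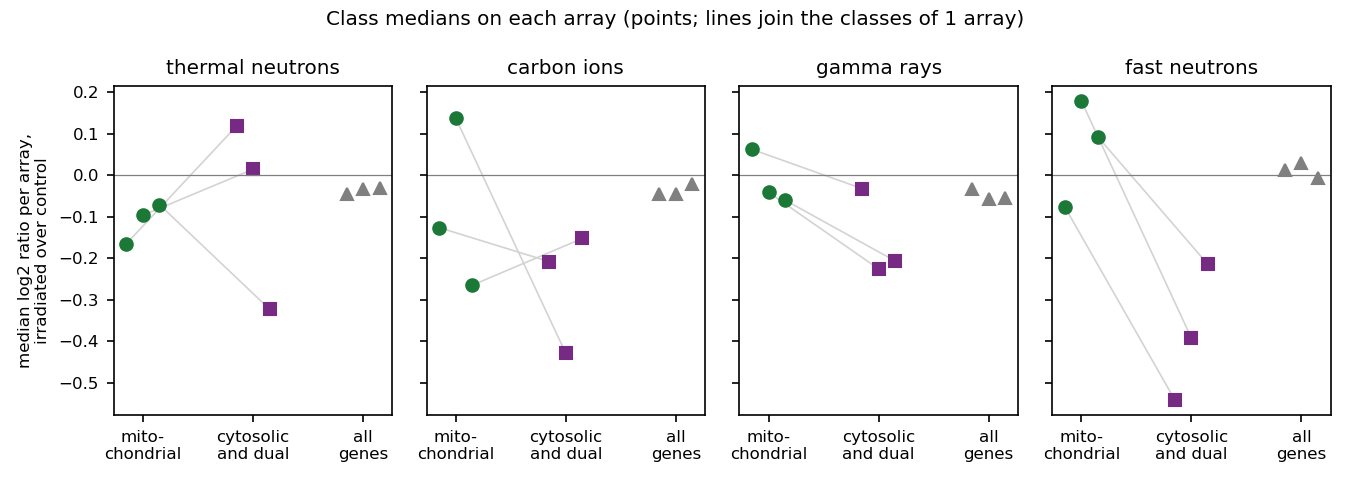
Median log2 ratio of irradiated over control per array (y axis) for the mitochondrial genes, the cytosolic and dual genes, and all genes (x axis), with 1 panel per radiation; each point is an array and lines join the classes of an array. On the 3 fast neutron arrays the mitochondrial median exceeds the cytosolic one by 0.46, 0.57 and 0.31.

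For 12 amino acids a mitochondrial member was set against a cytosolic member on the same array. MSR1, for arginine, had no cytosolic counterpart among the members and was left out. The mitochondrial gene was the higher on all 3 arrays for 4 of 12 pairs after thermal neutrons, 3 of the 10 pairs with 3 values after carbon ions, 8 of 12 after gamma rays and 6 of 12 after fast neutrons. The cytosolic gene was the higher on all 3 arrays for 3, 0, 1 and 2 pairs in the same order. Pair differences thus ran mostly one way after gamma rays, and less uniformly elsewhere.

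The lysine pair MSK1/KRS1 was turned round between radiations. MSK1 minus KRS1 was -0.98, -0.60 and -1.06 after thermal neutrons and 0.84, 0.74 and 1.08 after gamma rays, with means of -0.88 ± 0.24 and 0.89 ± 0.18. Both members of the pair contributed, since KRS1 was higher and MSK1 lower after thermal neutrons than after gamma rays. The phenylalanine pair MSF1/FRS2 was positive on all 12 arrays, with means of 0.50 after thermal neutrons, 0.77 after carbon ions, 0.33 after gamma rays and 1.14 after fast neutrons. The aspartate pair MSD1/DPS1 ran the other way on average, at -0.45 after thermal neutrons and -0.46 after fast neutrons. It averaged -0.44 over 2 carbon ion arrays and -0.38 over the gamma ray arrays. Dyes were not swapped, so a dye effect of either probe stays in a pair difference from 0. There it cannot be told apart from a response.

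After fast neutrons the leucine pair NAM2/CDC60 differed by 0.73, 0.99 and 0.77, and the glutamate pair MSE1/GUS1 by 0.68, 0.46 and 0.69. In both, the cytosolic gene fell and the mitochondrial one stayed within 0.10 of 0 on average. The tryptophan pair MSW1/WRS1 differed by -0.53, -0.92 and -0.53 after fast neutrons, the opposite of its 0.48, 0.38 and 0.19 after gamma rays.

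**Figure D4:**
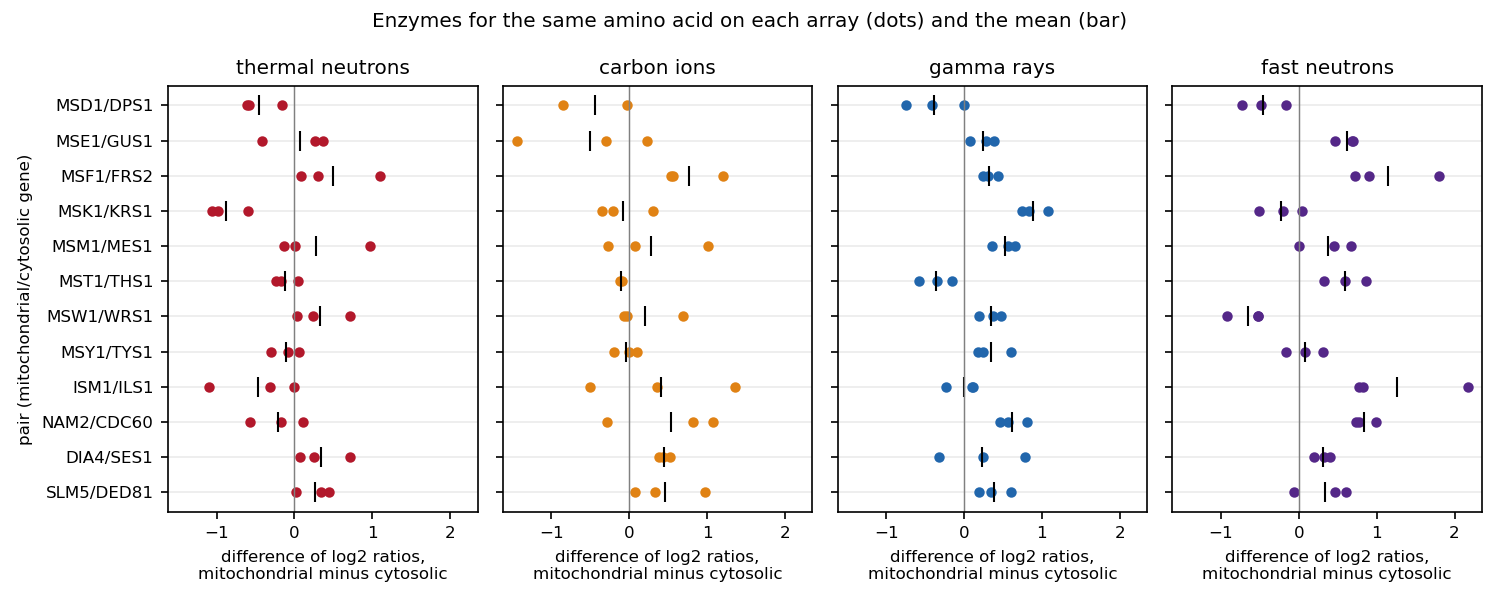
Difference of log2 ratios, mitochondrial minus cytosolic gene of the same amino acid (x axis), for 12 pairs (y axis) and 4 radiations (panels); dots are arrays and bars their means. MSK1/KRS1 lies left of 0 after thermal neutrons (mean -0.88) and right of 0 after gamma rays (mean 0.89).

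Between radiations of the same table, 6 of 32 members differed between thermal neutrons and gamma rays, against 38.2% of all genes tested. KRS1, FRS1 and MSF1 were higher and ALA1, MSK1 and SLM5 lower after thermal neutrons, where 20.4% of all genes were higher and 17.8% lower. Between carbon ions and gamma rays 1 of 30 differed, KRS1, which was higher, against 20.8% of all genes and 11.5% higher. No member was lower after carbon ions by limma, against 9.35% of all genes, with 5 at an unadjusted p under 0.05, against 16.4%. Between thermal neutrons and carbon ions 0 of 30 differed by limma, against 10.2% of all genes, 5.82% higher and 4.41% lower. In that comparison 5 members were higher after thermal neutrons at an unadjusted p under 0.05 and 0 were lower, against 14.96% and 12.2% of all genes. They were CDC60 (0.69), FRS2 (0.59), FRS1 (0.46), KRS1 (0.41) and TYS1 (0.38), and the first of them had an adjusted p of 0.0900. The differences of thermal neutrons and of carbon ions from gamma rays share the gamma ray arrays.

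The probe IDs consist of numbered fields, and what they stand for is not given in the sources used here. The first field has 8 values with 864 probes each, and the second has 24 values with 288 probes each. The median log2 ratio of the probes differed across the first field by 0.10 to 0.80 and across the second by 0.25 to 1.15, depending on the array. On fast neutron replicate 2 in the high-power scan, the medians for the first 5 values of the first field lay between 0.25 and 0.50, and those of the last 3 were -0.27, -0.44 and -0.79. In the low-power scan of the same array they ran between 0.14 and -0.18. Thermal neutron replicate 3 ranged from -0.48 to 0.40 across the second field, and fast neutron replicate 3 from -0.44 to 0.71.

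The members were not spread evenly over these fields. Of the 7 members in the last 2 values of the first field, 6 were cytosolic or dual (ALA1, FRS1, FRS2, GLN4, ILS1 and MES1) and 1 mitochondrial (MSM1). The median gap between the scans of fast neutron replicate 2 over the members was 0.35, and FRS2, GLN4 and ILS1 had gaps over 1, where the other arrays had median gaps of 0.06 to 0.16. Field centring brought the median SD of the members over the fast neutron arrays to 0.19, from 0.25 without it.

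With field centring the fast neutron count was 9 of 32 members, 8 lower and 1 higher, against 21.7% of all genes. The 8 that fell were ALA1, CDC60, DED81, GUS1, HTS1, ILS1, MES1 and THS1, all cytosolic or dual, and the member that rose was mitochondrial MSF1. The low-power scan alone gave 13 members, the high-power scan alone gave 0, and leaving out replicate 2 gave 14. Leaving out replicate 1 or replicate 3 gave 0. Shares of all genes under these other settings are not given here, so their counts cannot be read as particular to the members.

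The gamma ray count with field centring was 11, and it was 11 for the difference of thermal neutrons from gamma rays, against 43.4% and 42.6% of all genes. The thermal neutron count was 6 and the carbon ion count also 6, against 42.5% and 23.4% of all genes. The carbon ion calls of CDC60 and ILS1 were lost.

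**Figure D5:**
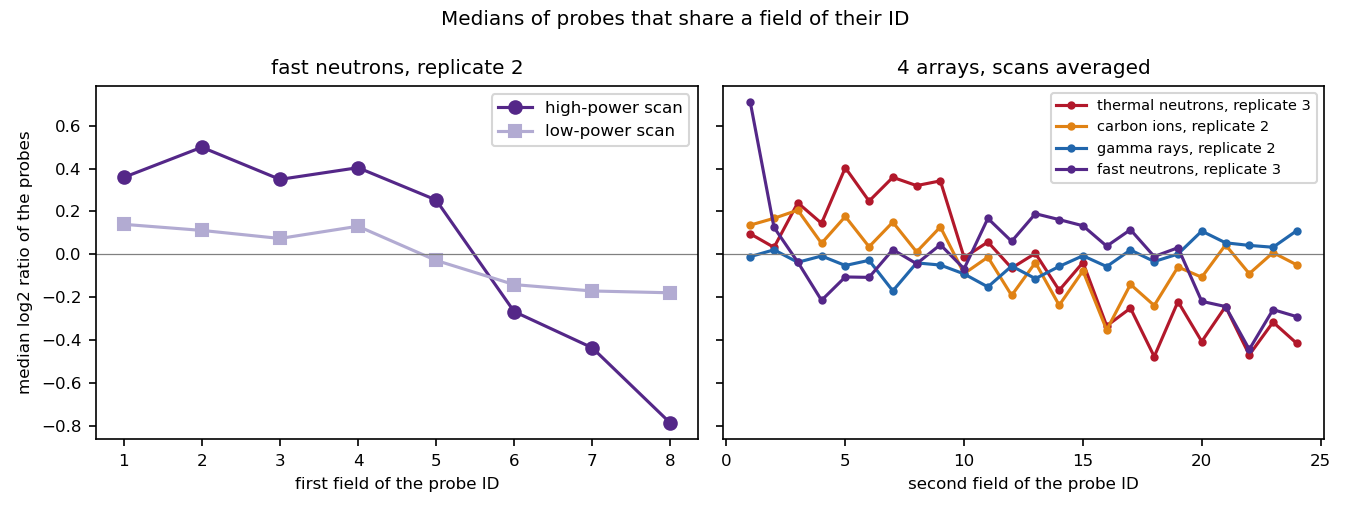
Median log2 ratio of irradiated over control (y axis) of the probes that share a value of the first (left) or second (right) field of the probe ID (x axis). In the high-power scan of fast neutron replicate 2 the medians reach -0.79 at the last value of the first field, against -0.18 in the low-power scan, and fast neutron replicate 3 reaches 0.71 at the first value of the second field.

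Beside the members, 3 further cytosolic synthetase genes outside the member list were read in the same fit, so the cytosolic class above is not complete. GRS2, the paralogue of GRS1, was not called after any radiation, and its highest mean was 0.53 ± 0.31 after fast neutrons. Cross-hybridisation between GRS1 and GRS2 cannot be told apart in these ratios. YDR341C was not called after any radiation. YHR020W had -0.49, -0.55 and -1.04 after thermal neutrons, -0.63, -0.51 and -0.73 after carbon ions, 0.43, 0.18 and 0.09 after gamma rays and -1.39, -0.82 and -0.87 after fast neutrons. It fell after thermal neutrons (adjusted p = 0.00204), carbon ions (adjusted p = 0.00890) and fast neutrons (adjusted p = 0.0193), the same radiations as ALA1. Against gamma rays, YHR020W was lower on the log2 scale after thermal neutrons (difference -0.92, adjusted p = 0.00295) and carbon ions (difference -0.86, adjusted p = 0.0105).

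Other genes of tRNA supply and translation gave mixed counts, to be read against the shares of all genes called, which were 41.2% after thermal neutrons, 21.6% after carbon ions, 40.0% after gamma rays and 11.0% after fast neutrons. In general amino acid control, GCN4 was not called after any radiation, with means of 0.07 after thermal neutrons, -0.08 after carbon ions, -0.18 after gamma rays and -0.20 after fast neutrons. Since GCN4 is controlled mainly in translation, its transcript does not report its activity. In this list 1 gene rose and 1 fell of 10 after thermal neutrons, 0 and 3 of 10 after carbon ions, 1 and 2 of 9 after gamma rays, and 0 and 0 of 10 after fast neutrons. The list's shares called were 20.0%, 30.0%, 33.3% and 0% in that order. For fast neutrons limma gave 1 lower at an unadjusted p under 0.05, against 15.8% of all genes. PCL5, a cyclin that promotes GCN4 breakdown, rose after gamma rays (1.08 ± 0.33, adjusted p = 0.00144). GCN3, a subunit of the initiation factor eIF2B, fell after carbon ions (-0.38) and gamma rays (-0.64).

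Of genes of tRNA end processing, splicing and export, 1 rose and 3 fell of 20 after thermal neutrons, 0 and 3 of 20 after carbon ions, 1 and 6 of 16 after gamma rays and 1 and 0 of 18 after fast neutrons. The shares called were 20.0%, 15%, 43.8% and 5.56%, against 41.2%, 21.6%, 40.0% and 11.0% of all genes. CCA1, which adds the 3' end to which amino acids are joined, fell after thermal neutrons (-0.63 ± 0.43, adjusted p = 0.00567) and carbon ions (-0.64 ± 0.08, adjusted p = 0.0121). RPM2, the protein subunit of mitochondrial RNase P, had 1.20, 1.29 and 1.53 after gamma rays and rose there (adjusted p = 4.50e-05). It rose less after thermal neutrons (0.54), and that difference was -0.80 (adjusted p = 0.00685).

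Of the tRNA modification genes, after thermal neutrons 2 rose and 17 fell of 54, after carbon ions 1 and 16 of 51, after gamma rays 5 and 16 of 51 and after fast neutrons 1 and 2 of 50. The shares called in either direction were 35.2%, 33.3%, 41.2% and 6%, against 41.2%, 21.6%, 40.0% and 11.0% of all genes. All genes were also lower more often than higher, at 21.2% against 19.9% after thermal neutrons, 12.0% against 9.70% after carbon ions, 22.4% against 17.6% after gamma rays and 5.92% against 5.06% after fast neutrons. SUA5, of the threonylcarbamoyl modification, had -1.20, -1.12 and -1.36 after thermal neutrons (-1.23 ± 0.12, adjusted p = 5.51e-05). It also fell after carbon ions (-0.72) and fast neutrons (-0.70). The median of the list was -0.32 after thermal neutrons, -0.25 after carbon ions, -0.19 after gamma rays and -0.09 after fast neutrons, and these lie further below 0 than the medians of all genes.

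Of mitochondrial translation factors and tRNA amidation or formylation genes, 1 rose and 2 fell of 10 after thermal neutrons, 0 and 2 of 9 after carbon ions, 2 and 0 of 10 after gamma rays, and 0 and 0 of 9 after fast neutrons. For fast neutrons limma gave 2 higher and 1 lower at an unadjusted p under 0.05, against 15.7% and 15.8% of all genes. The shares called were 30.0%, 22.2%, 20.0% and 0%, against 41.2%, 21.6%, 40.0% and 11.0% of all genes. MEF2, a mitochondrial elongation factor G acting in ribosome recycling, had 1.56, 1.55 and 1.42 after thermal neutrons (1.51 ± 0.08, adjusted p = 8.96e-06). It also rose after gamma rays (0.57 ± 0.16). HER2, of the complex that makes mitochondrial glutamine tRNA by amidation, fell after thermal neutrons (-0.58) and carbon ions (-0.57).

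Of cytosolic elongation and termination factors, 0 rose and 5 fell of 11 after thermal neutrons, 0 and 0 of 12 after carbon ions, 1 and 2 of 11 after gamma rays and 0 and 2 of 12 after fast neutrons. For carbon ions limma gave 1 higher and 3 lower at an unadjusted p under 0.05, against 16.8% and 21.5% of all genes. The shares called were 45.5%, 0%, 27.3% and 16.7%, against 41.2%, 21.6%, 40.0% and 11.0% of all genes. TEF4, a subunit of elongation factor eEF1B, had -1.16, -1.10 and -1.68 after fast neutrons (-1.31 ± 0.32, adjusted p = 0.0117) and also fell after thermal neutrons (-0.72). EFT2 encodes elongation factor 2, as does its copy EFT1. It fell after thermal neutrons (-0.77) and fast neutrons (-0.89), and signal of the copies cannot be told apart.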

How the data were processed

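The deposited values are log2 ratios of Cy5 (irradiated) over Cy3 (control), and per the labels the authors used spots with flag value 0 for LOWESS normalisation. The log base was settled from the values. Arrays of thermal neutrons, carbon ions and fast neutrons have a high-power and a low-power scan, and gamma ray arrays a single one, giving 21 columns for 12 arrays. Each table has 6912 probes, of which 5446 (thermal neutrons, carbon ions and gamma rays) and 5513 (fast neutrons) carry a gene symbol, and 4496 to 6133 probes per column hold a value. The number of arrays limits the precision.

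Scans were averaged, then the probes of a gene. limma 3.58.1 in R 4.3.3 (lmFit, eBayes, two-sided) tested genes with a value on all 3 arrays of a radiation, with a Benjamini-Hochberg adjusted p under 0.05 over all genes. A single spread per gene was estimated over the 9 arrays of thermal neutrons, carbon ions and gamma rays. Fast neutrons, on another array type, were fitted alone and not tested against the others. The fit was tested on simulated data, in which false calls in the fit of 9 arrays exceeded the nominal share for thermal neutrons and their differences. No changed genes were simulated for the other radiations of that fit.

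Members, classes and lists were chosen with earlier results of these data known. Every member could be named, and from each other list up to 4 genes per radiation with the smallest adjusted p, plus GCN4. Replicate numbers were not used to pair the samples in the main fit. Residuals of same-numbered arrays correlated with r of -0.25 to 0.13 over 9 pairs. Residuals were centred within each radiation and carry array effects, so these values cannot exclude a pairing. Alternatives covered centring, scaling, scans, probes, missing values, weights, spread, left-out replicates, the replicate block and, added after seeing the data, centring by the fields of the probe IDs. Gene roles are background knowledge. Coordinates and sequences were not used here.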

Additional observations from a re-analysis of the deposited data

Results flagged for a closer look

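In 7 cases (6 genes) a member differed between radiations by a limma contrast. KRS1 was higher after carbon ions than after gamma rays by 0.69 on the log2 scale. Thermal neutrons minus gamma rays gave 1.10 for KRS1, 0.70 for FRS1, 0.66 for MSF1, -0.67 for ALA1, -0.66 for MSK1 and -0.55 for SLM5. Only the thermal neutron differences of KRS1, FRS1 and MSF1 passed under every alternative computed. Groups of 3 arrays are too small for a check of single outlying samples.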

How the results depend on the processing

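Of 33 calls among members, 5 passed under all alternatives run for them (KRS1 after gamma rays, MSF1 after thermal neutrons, and KRS1, FRS1 and MSF1 between thermal neutrons and gamma rays), 28 were lost under at least 1, and 0 changed sign. The values below are counts of members called, and their cause was not tested. Shares of all genes stand only beside the counts from centring by probe ID fields. The other counts therefore cannot be read as particular to the members. Scaling arrays to the same spread gave 5 after thermal neutrons, 12 after carbon ions, 10 after fast neutrons and 2 between carbon ions and gamma rays. The high-power scan alone gave 0 after fast neutrons and 2 between carbon ions and gamma rays, and the low-power scan alone 13 after fast neutrons. Array weights gave 12 after fast neutrons, 12 between thermal neutrons and gamma rays, 4 between thermal neutrons and carbon ions and 2 between carbon ions and gamma rays. Fitting each radiation alone gave 7 after thermal neutrons, 0 after carbon ions and 4 after gamma rays. Field centring gave 11 after gamma rays, 11 between thermal neutrons and gamma rays and 3 between thermal neutrons and carbon ions. The shares of all genes there were 43.4%, 42.6% and 13.4%. Centring on the median of the 36 probes that share both fields was also chosen after seeing the data. It gave 11 after fast neutrons and 12 between thermal neutrons and gamma rays, against 27.2% and 43.0% of all genes. Between thermal neutrons and carbon ions it gave 2, and between carbon ions and gamma rays 4, against 14.7% and 23.2%. This centring turned THS1 after thermal neutrons to 0.34 (adjusted p = 0.0281), from a value that was not called. Leaving out single replicates gave 3 to 5 after thermal neutrons, 0 to 6 after carbon ions, 1 to 4 after gamma rays, 0 to 14 after fast neutrons, 3 to 7 between thermal neutrons and gamma rays, 0 to 1 between thermal neutrons and carbon ions and 0 to 2 between carbon ions and gamma rays.

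The replicate block gave 8 calls after thermal neutrons, 5 after carbon ions, 5 after gamma rays, 5 between thermal neutrons and gamma rays, 0 between thermal neutrons and carbon ions and 1 between carbon ions and gamma rays. No block was fitted for fast neutrons, which have 1 group. The mitochondrial minus cytosolic median after gamma rays was 0.19 with centring on shared fields, 0.25 without dual genes and 0.32 as the median over amino acid pairs, and after thermal neutrons it was 0.0084 with the high-power scan alone. Without single replicates it was -0.20 to 0.070 after thermal neutrons, 0.015 to 0.32 after carbon ions, 0.12 to 0.17 after gamma rays and 0.39 to 0.52 after fast neutrons. The 0.015, without carbon ion replicate 2, includes MSD1 and MST1, which the other carbon ion values leave out.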
